A study of Homo sapiens with 6 samples.

Results

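Chromatin accessibility was examined at 5 genes of endocrine commitment, *NEUROG3*, *NEUROD1*, *INSM1*, *MYT1* and *ST18*, in EndoC-βH3 cells. They were represented by accessible regions from an ATAC-seq table of 108542 regions on hg38. Regions that reached within 2 kb of the start site of a protein-coding transcript of one of these genes (GENCODE 44) were taken as its promoter regions. Any other region whose middle was closest to such a start site, at no more than 100 kb, was taken as a distal region of that gene. This gave 61 regions, of which 12 were promoter regions out of 20094 in all and 49 were distal regions out of 88448 in all. EndoC-βH3 is a human beta-like line from fetal pancreas, immortalised by hTERT and SV40 large T antigen, which Cre recombinase can remove once 4-hydroxytamoxifen activates it. The senescent group (3 libraries) had received 4-hydroxytamoxifen for 3 weeks and the non-senescent group (3 libraries) had not, each library being made from 100000 cells. Both groups come from the same line, which limits them as a model of beta cells, and nothing in the labels says that the replicates were separate cultures.

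The value used is the mean signal, the authors' mean of normalised read counts over all 6 libraries of both groups. It has no error and no value for a single library, so no difference between senescent and non-senescent cells was examined here, the order of levels below carries no test, and a region open in 1 group alone cannot be told apart from a region open weakly in both. The mean signal rises with the width of a region, so levels of different regions are set against each other as mean signal per kb of width. The depth of a single library cannot be read from a pooled mean.

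NEUROG3 is a basic helix-loop-helix (bHLH) factor that is switched on briefly in pancreatic progenitors, where Notch signalling restrains it, and commits them to the endocrine lineage. NEUROD1 is a related factor that follows it and stays on in mature endocrine cells, including beta cells, where it binds the insulin gene. Both pair with E proteins and bind E-boxes. INSM1 is a zinc finger repressor that acts with the demethylase KDM1A, and MYT1 and ST18 are zinc finger factors of the MYT family that also act in neurons.

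The contrast between a closed and an open start site is shown by the following stretches of promoter DNA, in which capitals mark E-boxes (CAGNTG on either strand). The *NEUROG3* stretch (chr10:69573423-69573672, minus strand) and the *MYT1* stretch (chr20:64164202-64164451, plus strand) are the 250 bases before the RefSeq start site on GRCh38.p14. The RefSeq promoter table matched 3 of the 5 genes. The *NEUROD1* stretch (chr2:181680828-181681127, minus strand) is 300 bases of hg38 upstream of all annotated *NEUROD1* transcripts, inside its strongest promoter region.
NEUROG3 promoter: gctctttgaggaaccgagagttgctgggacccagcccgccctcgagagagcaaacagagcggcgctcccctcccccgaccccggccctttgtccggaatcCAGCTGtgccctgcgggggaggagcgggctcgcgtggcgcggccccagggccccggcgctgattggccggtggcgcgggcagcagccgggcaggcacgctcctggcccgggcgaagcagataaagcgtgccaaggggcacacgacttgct
NEUROD1 upstream: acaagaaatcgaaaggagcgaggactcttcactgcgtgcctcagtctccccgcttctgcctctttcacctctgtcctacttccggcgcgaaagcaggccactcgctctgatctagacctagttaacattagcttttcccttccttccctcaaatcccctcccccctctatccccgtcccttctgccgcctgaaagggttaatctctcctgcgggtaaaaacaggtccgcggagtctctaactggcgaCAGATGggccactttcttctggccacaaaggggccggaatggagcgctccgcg
MYT1 promoter: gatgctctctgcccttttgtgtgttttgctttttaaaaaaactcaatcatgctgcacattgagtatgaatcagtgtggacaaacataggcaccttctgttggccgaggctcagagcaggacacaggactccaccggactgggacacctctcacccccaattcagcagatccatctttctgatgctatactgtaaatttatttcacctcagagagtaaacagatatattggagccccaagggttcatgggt

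No accessible region overlapped the *NEUROG3* stretch, whereas the *NEUROD1* stretch lay in a region with a mean signal of 1843 and the *MYT1* stretch in a region with a mean signal of 478. The *NEUROG3* stretch was GC-rich, at 72.0%, with a ratio of observed to expected CpG of 0.772, beside medians of 65.7% and 0.759 in the middles of all promoter regions. The *NEUROD1* stretch had a GC content of 56.7% and a CpG ratio of 0.791. The *MYT1* stretch was CpG-poor, with a GC content of 45.6% and a CpG ratio of 0.155. The *NEUROD1* stretch held 1 CAGATG, the E-box of NEUROG3 and NEUROD1 dimers, the *NEUROG3* stretch 1 CAGCTG, and the *MYT1* stretch no E-box. Among the 35116 RefSeq promoters of 250 bases, 12.2% held CAGATG, 14.0% CAGCTG and 42.5% CAGNTG, which includes both others.

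The distal sequences come from the middles of the strongest distal regions, 300 bases each on hg38, given on the plus strand with the E-boxes again in capitals. Those of *INSM1* are its 3 strongest, at chr20:20373175-20373474, chr20:20411292-20411591 and chr20:20439721-20440020. That of *MYT1* is at chr20:64188889-64189188, and the only distal region of *NEUROG3*, shown for contrast, is at chr10:69577764-69578063. Each is named by its gene and its distance from the start site, with minus for upstream.
INSM1 +5.2 kb: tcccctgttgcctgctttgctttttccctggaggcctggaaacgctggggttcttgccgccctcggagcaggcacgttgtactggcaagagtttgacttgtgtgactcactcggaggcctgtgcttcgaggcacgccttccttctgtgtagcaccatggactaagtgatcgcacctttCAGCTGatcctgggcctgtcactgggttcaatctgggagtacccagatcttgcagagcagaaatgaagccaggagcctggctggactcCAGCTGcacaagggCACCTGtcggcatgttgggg
INSM1 +43.3 kb: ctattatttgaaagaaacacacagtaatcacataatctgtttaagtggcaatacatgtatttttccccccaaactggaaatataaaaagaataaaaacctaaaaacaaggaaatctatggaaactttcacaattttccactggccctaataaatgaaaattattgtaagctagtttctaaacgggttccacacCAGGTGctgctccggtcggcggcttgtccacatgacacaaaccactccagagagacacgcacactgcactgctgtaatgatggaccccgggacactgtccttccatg
INSM1 +71.8 kb: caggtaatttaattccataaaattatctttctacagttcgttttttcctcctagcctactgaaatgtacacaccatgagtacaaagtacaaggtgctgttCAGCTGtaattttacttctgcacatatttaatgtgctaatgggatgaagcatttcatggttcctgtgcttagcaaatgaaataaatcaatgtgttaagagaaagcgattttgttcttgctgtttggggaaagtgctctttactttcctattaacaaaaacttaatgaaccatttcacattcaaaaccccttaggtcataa
MYT1 +24.5 kb: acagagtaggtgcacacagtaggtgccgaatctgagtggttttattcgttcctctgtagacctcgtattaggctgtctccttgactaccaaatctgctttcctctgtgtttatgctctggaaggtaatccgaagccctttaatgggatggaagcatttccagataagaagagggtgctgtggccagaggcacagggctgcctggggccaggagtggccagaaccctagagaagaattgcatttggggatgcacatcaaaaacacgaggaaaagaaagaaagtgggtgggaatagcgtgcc
NEUROG3 -4.5 kb: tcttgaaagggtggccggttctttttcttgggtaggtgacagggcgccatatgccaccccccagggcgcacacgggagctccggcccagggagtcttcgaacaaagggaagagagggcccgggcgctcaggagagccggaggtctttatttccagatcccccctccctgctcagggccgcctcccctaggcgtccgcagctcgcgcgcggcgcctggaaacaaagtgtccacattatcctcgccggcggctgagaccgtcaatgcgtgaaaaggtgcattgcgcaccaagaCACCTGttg

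The 3 *INSM1* windows held 3, 1 and 1 E-boxes, and the first of them also a match to the AP-1 motif TGACTCA. The *MYT1* window held no E-box and the *NEUROG3* window 1. None of these windows held CAGATG, and 66.5% of all distal regions held a CAGNTG in the 300 bases around the middle. The *INSM1* windows ranged from 34.3% to 57.7% GC, and the *NEUROG3* window, from a region with a mean signal of 20.1, was at 63.0%.

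*NEUROG3*, the first factor of the cascade, had only 2 weak regions by the rule used. The gene (ENSG00000122859.5) lies at chr10:69571698-69573422 on the minus strand. Its only promoter region, chr10:69572359-69573008, did not cover the start site, since its middle lay 0.739 kb downstream, in the coding exon. It had a mean signal of 29.1, or 44.8 per kb of width, and only 4.25% of promoter regions were lower in mean signal and 0.677% lower per kb. The only distal region, chr10:69577658-69578168, lay 4.49 kb upstream between genes, with a mean signal of 20.1, above 11.6% of distal regions. This depended on the start sites counted. With 1 canonical start site per gene, *NEUROG3* had 2 distal regions, the stronger with a mean signal of 110, above 59.6% of distal regions. Among the 15493 protein-coding genes with a promoter region, which are 78.8% of 19663, only 1.97% had a strongest promoter region with a lower mean signal than that of *NEUROG3*.

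*NEUROD1* (ENSG00000162992.5, chr2:181668295-181680827, minus strand) had the highest promoter level of the 5 genes. The region over its start sites, chr2:181680291-181681143, had a mean signal of 1843, above 91.2% of promoter regions, and a mean signal per kb of 2164, above 97.1%. A second promoter region, chr2:181677743-181679074, had its middle in the coding exon, 2.11 kb downstream, with a mean signal of 617 (464 per kb). Both also counted as promoter regions of *CERKL*, a ceramide kinase-like gene on the same strand, because *CERKL* transcripts start at positions 181680490 and 181680665, on either side of the *NEUROD1* start sites at 181680517 and 181680520. The accessibility at these start sites therefore cannot be assigned to 1 of the 2 genes.

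For the same reason *NEUROD1* had 0 distal regions by the rule used, as a *CERKL* start site was nearer to every region on either side. These neighbours comprised 12 regions, with mean signals of 17.5 to 1061. The strongest, chr2:181683478-181684386, lay 3.41 kb upstream of *NEUROD1* with a mean signal of 1061, above 97.1% of distal regions, and the next, 4.61 kb upstream, had 349. The other 10 lay between 17.5 and 121. With 1 canonical start site per gene, all 12 fell to *NEUROD1*, more distal regions than 97.9% of genes had under that setting. The absence of distal regions at *NEUROD1* is thus a matter of which start sites are counted.

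*INSM1* (ENSG00000173404.5, chr20:20368104-20370949, plus strand), a gene with a single exon, had strong regions over its start site, in its coding exon and on both sides of the gene. The promoter region over its start site, chr20:20367362-20368277, had a mean signal of 1583 (1730 per kb), above 87.3% of promoter regions. A region in its coding exon, chr20:20369036-20370209, had 1060, and a narrow region 1.2 kb upstream, 258 bp wide, had 169. Its 16 distal regions had mean signals of 32.2 to 2036, with a median of 431 against 76.8 for all distal regions, and 14 of the 16 lay above that median. Distal regions held 79.6% of the mean signal summed over its regions.

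Of these 16, 6 were in the top 5% of all distal regions, and they stood on both sides of the gene. The strongest, chr20:20372640-20374009, lay 5.22 kb downstream of the start site, past the end of the gene, with a mean signal of 2036. Further downstream, a region 19.1 kb away had 910, one 43.3 kb away had 1910 and one 71.8 kb away had 1650. Upstream, regions 5.15 kb and 50.5 kb away had 957 and 1340. The last lay in an intron of *CFAP61*, a cilia gene, and those 43.3 and 71.8 kb downstream in introns of *RALGAPA2*, a subunit of a Ral GTPase-activating complex. In all, 12 of the 16 lay in introns of these 2 neighbours and 4 between genes. Per kb of width, the order differed, and the highest was the region 5.15 kb upstream, only 399 bp wide, at 2399 per kb, against 1487 for the region 5.22 kb downstream.

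**Figure D1:**
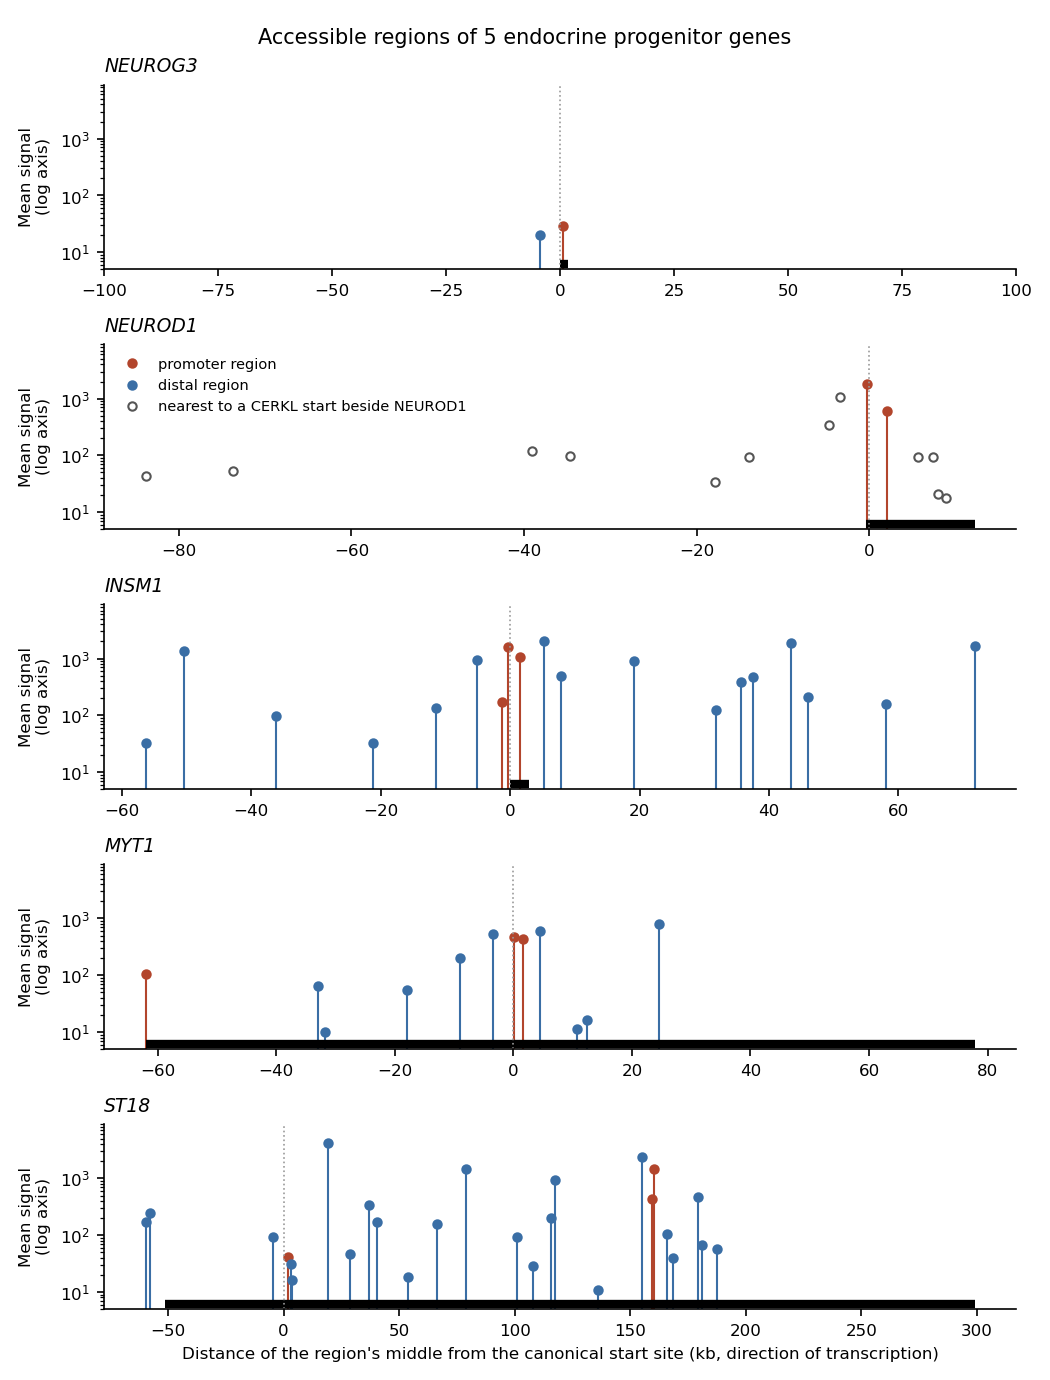
Mean signal (log axis) of each accessible region against the distance of its middle from the canonical start site in kb, with 1 panel per gene, promoter and distal regions in different colours, and the gene as a black bar. *NEUROG3* has 2 regions of 29.1 or less, *INSM1* has 19 regions spread over both sides, and the strongest regions of *ST18* lie inside the gene. Open circles are the 12 regions beside *NEUROD1* that are nearest to a *CERKL* start site.

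At both *MYT1* and *ST18*, regions at or upstream of a start site further into the gene were stronger than those near the outermost protein-coding start sites. The stronger regions lay at the canonical start site in *MYT1* but near a non-canonical one in *ST18*. *MYT1* (ENSG00000196132.14, chr20:64102394-64242253, plus strand) had 5 start sites. The region over the first, chr20:64101992-64103044, had a mean signal of 104 (99.0 per kb), above 19.1% of promoter regions. The region over the canonical start site and its close neighbours, 62.1 kb further into the gene, chr20:64164200-64164773, had 478 (834 per kb), and a region 1.56 kb downstream of it had 442 (1171 per kb). No accessible region overlapped the start site at 64151791. All 9 distal regions of *MYT1* lay in its introns, with mean signals of 10.2 to 801 and a median of 65.6. The strongest, chr20:64188263-64189813, lay 24.5 kb downstream of its nearest start site and was in the top 5% by mean signal but above only 86.5% of distal regions per kb, being 1550 bp wide. The next were 596 at 4.36 kb downstream and 523 at 3.43 kb upstream, so that 4 regions above 400 lay within 5 kb of the canonical start site.

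*ST18* (ENSG00000147488.13, chr8:52110838-52460959, minus strand) had the region with the highest mean signal of the 61. No region covered any of the 4 start sites of its protein-coding transcripts. Start sites of every transcript of every gene type gave *ST18* 6 promoter regions. Of its 3 by the rule used, the one nearest to the canonical start site at 52409756, chr8:52407519-52407894, 2.04 kb downstream, had a mean signal of 40.6 (108 per kb). Upstream of the internal start site at 52248526, regions 0.928 and 1.7 kb away had 1445 (2070 per kb) and 435 (1057 per kb). The first, chr8:52249105-52249803, was above 84.5% of promoter regions in mean signal and 96.5% per kb.

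Of 23 distal regions of *ST18*, 21 lay in its introns and 4 were in the top 5%. The strongest, chr8:52389146-52391631, in an intron 19.4 kb downstream of the nearest start site, had a mean signal of 4242, above 99.9% of distal regions, and was 2485 bp wide, which gave 1707 per kb. The region 6.26 kb upstream of the internal start site, chr8:52254310-52255265, had a mean signal of 2370 and the highest level per kb of all 61 regions, 2481. The others, chr8:52330536-52331204 and chr8:52291946-52292761, had 1465 and 935. The remaining 19 were weaker, and the median over all 23 was 104, with 7 under a mean signal of 50. Distal regions held 85.6% of the summed mean signal of *ST18*.

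Across the 5 genes, the promoter region with the highest mean signal of each gene had its highest level per kb of width at *NEUROD1* (2164), followed by *ST18* (2070), *INSM1* (1730), *MYT1* (834) and *NEUROG3* (44.8). The level at *NEUROG3* was far below the other 4. Whether neighbours in this order differ cannot be judged without values per library. On the scale of mean signal, *INSM1* (1583) stood above *ST18* (1445), so the order of these 2 depends on width. The place of *ST18* also rests on its internal start site. With canonical start sites it kept 1 of its 3 promoter regions, at 108 per kb, below *MYT1*. None of the 12 promoter regions was in the top 5% of promoter regions by mean signal, and 5 lay above the class median of 506. Per kb, 8 of the 12 lay above the class median of 507 and 2 were in the top 5%, those of *NEUROD1* and *ST18*.

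**Figure D2:**
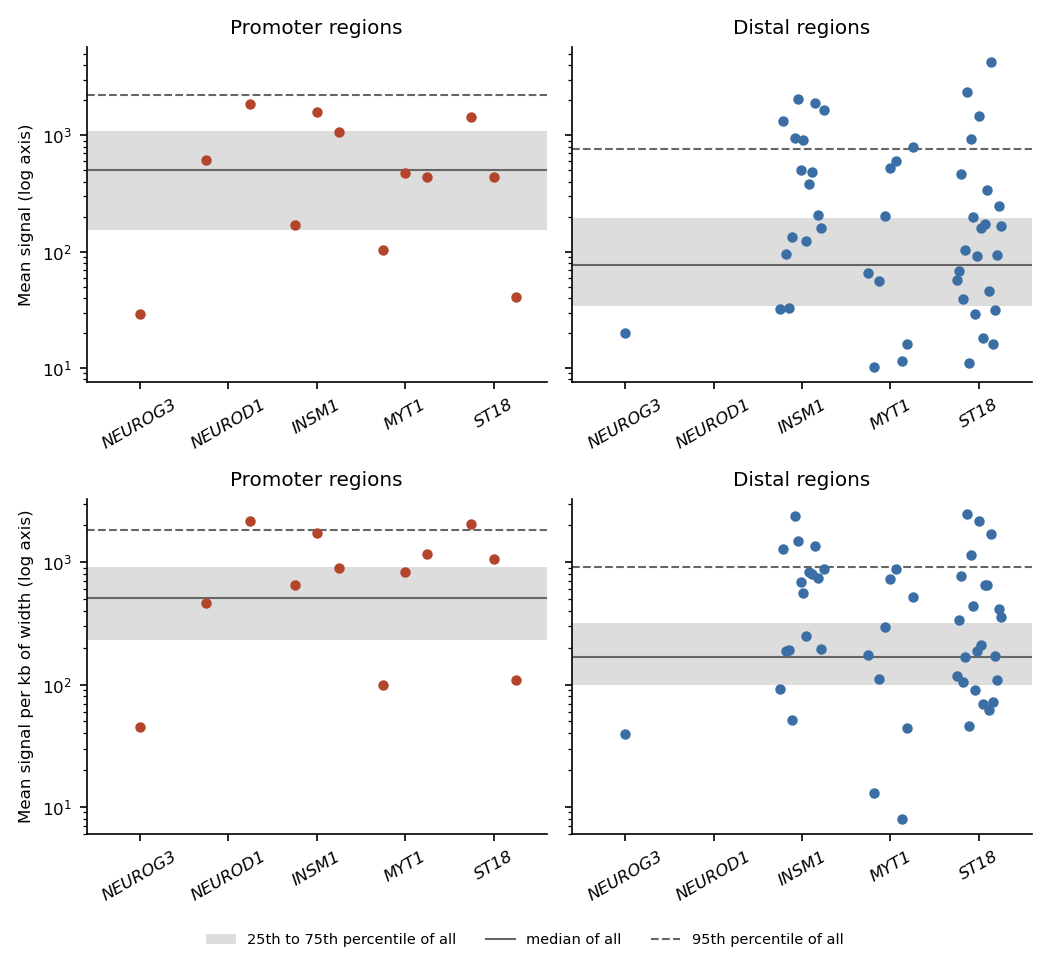
Mean signal (top) and mean signal per kb of width (bottom) of each promoter region (left) and distal region (right) of the 5 genes, on log axes, with the grey band for the 25th to 75th percentile of all regions of the class, a solid line for their median and a dashed line for their 95th percentile. Points above the dashed line in the upper right panel are the 11 distal regions in the top 5%, 6 of *INSM1*, 4 of *ST18* and 1 of *MYT1*.

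Of the 49 distal regions, 32 lay above the median of all distal regions in mean signal and 11, or 22.4%, were in the top 5%. Per kb of width, 34 lay above the class median and 8, or 16.3%, were in the top 5%, a share close to the 16.7% (2 of 12) of the promoter regions on that scale. The 11 by mean signal were the 6, 4 and 1 of *INSM1*, *ST18* and *MYT1* described above. At the other end, 13 of the 49, or 26.5%, had a mean signal under 50, against 31.6% of all assigned distal regions. By position, 42 lay in introns and 7 between genes, 14 lay within 10 kb of a start site of their gene, and 11 lay beyond 50 kb. Of all 55158 assigned distal regions, 23.7% lay within 10 kb and 23.7% beyond 50 kb.

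In number, *ST18* had more distal regions (23) than 99.4% of protein-coding genes, *INSM1* (16) more than 98.1% and *MYT1* (9) more than 92.3%. *NEUROG3*, with 1, had more than 32.9%, which is the share of genes with none, and the median gene had 1. This order changed with canonical start sites. *INSM1* then had 25, more than 99.96% of genes, *ST18* and *NEUROD1* 12 each, more than 97.9%, and *MYT1* 7, more than 89.0%. The strongest distal region of *INSM1* under that setting had a mean signal of 2938. A gene with distant neighbours collects more regions. The stretch of genome nearest to each gene within the limit, outside the promoter windows, was 331 kb for *ST18*, 138 kb for *INSM1*, 79.4 kb for *MYT1* and 69.2 kb for *NEUROG3*. Per 100 kb of this stretch, *INSM1* had 11.6 regions and *MYT1* 11.3, against 6.95 for *ST18* and 1.45 for *NEUROG3*, with 2.83 for the median of genes with at least 10 kb. By density, *INSM1* and *MYT1* were thus above 96.2% and 95.9% of genes and *ST18* above 85.1%. The stretches of *NEUROG3* and *MYT1* were thus of similar length, with 1 and 9 distal regions.

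**Figure D3:**
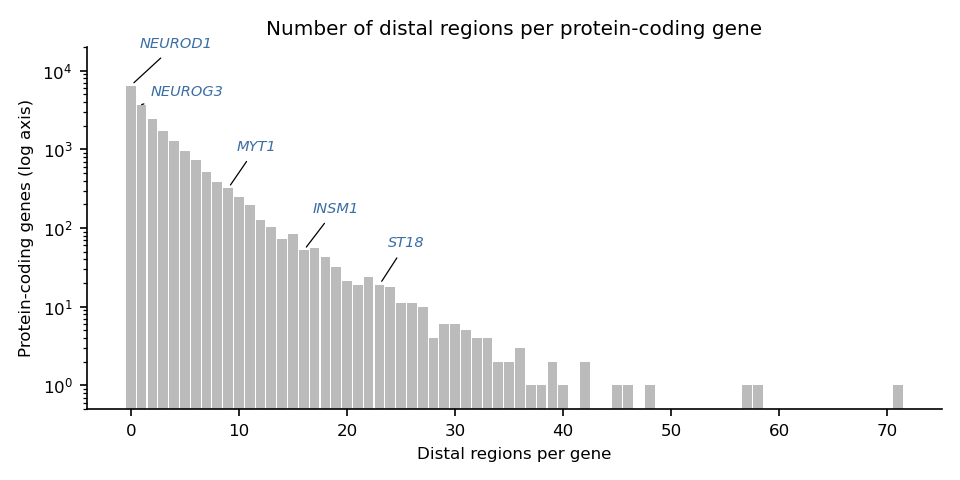
Number of protein-coding genes (log axis) by their number of distal regions, with the 5 genes marked. *ST18* (23), *INSM1* (16) and *MYT1* (9) lie in the right tail, and *NEUROD1* (0) and *NEUROG3* (1) at the left end, where *NEUROD1* has 0 because of *CERKL* start sites.

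Several close relatives of the 5 genes act in neurons or their progenitors. Of 7 paralogs, 5 had a promoter region and 1, *INSM2*, had a strongest promoter region above the median of all genes (840 in mean signal and 686 per kb). *NEUROG1* and *NEUROG2*, the paralogs of *NEUROG3* in neural progenitors, had strongest promoter regions of 109 and 217 per kb, both above the 44.8 of *NEUROG3*. *NEUROD2*, a neuronal relative of *NEUROD1*, was at 46.7 per kb against 2164 for *NEUROD1*, and *NEUROD4* and *NEUROD6* had no promoter region. *INSM2* had a mean signal of 2012, above the 1583 of *INSM1*, but only 845 per kb against 1730, so the 2 scales give opposite orders. *MYT1L*, the third gene of the MYT family, was at 381 per kb against 834 for *MYT1* and 2070 for *ST18*. With canonical start sites *ST18* was at only 108 per kb, a setting not applied to *MYT1L*. The paralogs had 1 to 14 distal regions, and the strongest of these, next to *NEUROD6*, had a mean signal of 717.

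Upstream factors, which act before or on *NEUROG3*, all had a promoter region. Of the 16, 9 lay above the gene median in mean signal but only 7 per kb. The highest strongest promoter regions were those of *FOXA2*, a forkhead factor of endoderm (3013, or 2084 per kb), and *PDX1*, the homeodomain factor of pancreas and beta cells (2900, or 2057 per kb). Among the lowest was that of *PTF1A*, a bHLH factor of progenitor and acinar cells (110, or 78.4 per kb).

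Factors of endocrine differentiation, several of which follow NEUROG3 in the cascade, all had a promoter region too. Of the 12, 7 were above the gene median in mean signal and 8 per kb. Among the highest was *PAX4* (4435, or 2651 per kb), a paired-box factor of beta and delta cell fate. The lowest in mean signal was *FEV*, an ETS factor of endocrine progenitors (44.1, or 160 per kb). Among the partners and inhibitors, 8 of 12 were above the gene median in mean signal and 7 per kb. By mean signal, the highest were *ID1*, an inhibitor of bHLH dimers (1808, or 945 per kb), and *TCF12*, an E protein (1519, or 666 per kb), and the lowest *ID3*, another such inhibitor (615, or 837 per kb), and *RCOR1*, a corepressor that binds KDM1A (690, or 630 per kb). Per kb the order differed, as *ID3* stood above *TCF12*, which was below the gene median of 686. Their range, from 615 to 1808 in mean signal, was narrower than that of the other lists.

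**Figure D4:**
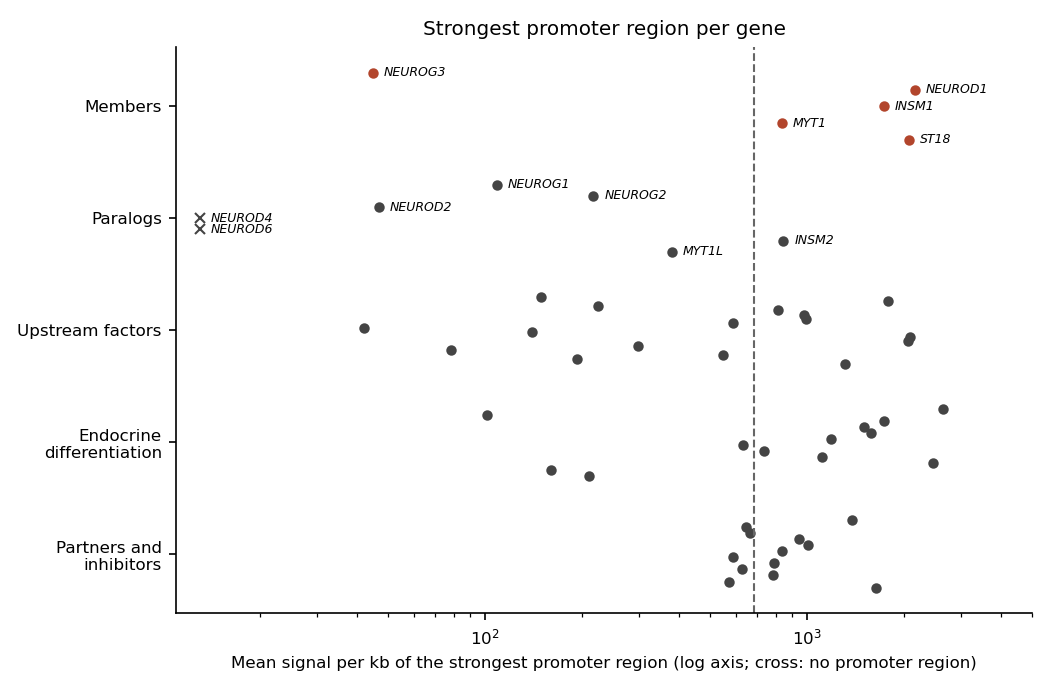
Mean signal per kb of width of the strongest promoter region of each gene (log axis) for the 5 genes, their paralogs and 3 lists of related factors, with crosses for genes without a promoter region and a dashed line at the median of all genes with one (686). *NEUROG3* (44.8) lies at the low end with *NEUROD2* (46.7), and *NEUROD1* (2164) and *ST18* (2070) at the high end. The value of *ST18* comes from a region upstream of its internal start site.

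As a check of the labelled cell type, all 8 beta cell marker genes had a promoter region, with strongest mean signals from 183 (*IAPP*, islet amyloid polypeptide, 435 per kb) to 7894 (*INS*, insulin, 1427 per kb). A promoter region was present at 78.8% of all genes, and 4 of the 8 were above the gene median in mean signal and 5 per kb. Markers without any promoter region were *PRSS1* of acinar cells, *CFTR* of duct cells, *COL3A1* of mesenchyme, *VWF* of endothelium and *PTPRC* of leukocytes. Other markers of non-beta cells did have one, with high mean signals for *CPA1* of acinar cells (2101), *IRX2* of alpha cells (1340), *STMN2* of neurons (1160) and *KRT19* of duct cells (1059). Their part in the levels above was not tested.

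The regions of the 5 genes were close to their classes in base composition. In the 300 bases around the middle, the 12 promoter regions had a median GC content of 60.2% and a CpG ratio of 0.698, against 65.7% and 0.759 for all promoter regions. The 49 distal regions had a median GC content of 49.7% and a CpG ratio of 0.238, against 44.7% and 0.221. Within the group, the 3 promoter regions of *ST18* were the lowest, at 42.7% to 47.0% GC, near the 44.7% of all distal regions. All 3 lay in introns and covered no start site. Those of *MYT1* were at 50.3% to 71.0% and those of *INSM1* at 59.7% to 74.7%. The promoter region of *NEUROG3* had the highest median CpG ratio of the 5 genes, 1.03, beside the lowest level.

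In the same windows, matches to 11 short motifs were counted on both strands. A match is a description of the letters and not a binding site. CAGATG occurred in 5 of the 12 promoter regions, 41.7% (95% Wilson interval 19.3% to 68.0%, which covers counting error only), against 14.2% of all promoter regions. These 5 were in 2 regions of *INSM1* and 1 each of *NEUROG3*, *NEUROD1* and *ST18*, and none in *MYT1*. Those of *NEUROG3* and *NEUROD1* (mean signals of 29.1 and 617) have their middles in coding exons. The window of the *NEUROD1* region over its start sites held no CAGATG, as the one in the stretch shown above lay outside it. In the distal regions, CAGATG occurred in 20 of 49, 40.8% (28.2% to 54.8%), against 31.1% of all distal regions, a share within the interval. Among the 11 of them in the top 5% by mean signal, 1 held CAGATG, against 29.9% of all distal regions in the top 5%. Over whole regions, CAGATG occurred in 29 of 49, 59.2% (45.2% to 71.8%), against 43.9%, outside the interval. Whole-region shares, here and below, were not matched for width, and a wider region has more room for a match. The 49 distal regions had a median width of 597 bp, against 490 bp for all distal regions. The wider E-box CAGNTG, which includes CAGATG and CAGCTG, occurred in 34 of the 49 against 66.5% of all, and in 13 of the 16 of *INSM1*.

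The forkhead motif TGTTTAC occurred in 3 of the 12 promoter regions (interval of the share 8.89% to 53.2%), against 3.11% of all, namely in 2 regions of *MYT1* and 1 of *ST18*. The GC box CCCGCC occurred in 3 of the 12 against 56.2% of all promoter regions. For both motifs and for CAGATG the share of all promoter regions lay outside the interval, but these shares rest on 3 to 5 regions, and regions of 1 gene share a locus. Each also fell inside the interval with another window. Over whole regions, CAGATG occurred in 58.3% (32.0% to 80.7%) against 39.1%, and TGTTTAC again in 3 of the 12 against 9.43%, while in 200 bases CCCGCC occurred in 3 of the 12 against 44.8%. Most of the 12 promoter regions did not cover a start site. In 300 bases, the shares of all distal regions (CAGATG 31.1%, TGTTTAC 9.43%, CCCGCC 9.37%) lay inside the intervals of the 12 promoter regions. For motifs of the genes' own products, AAAGTT of the MYT family occurred in 0 of 12 promoter regions against 8.02% of all, which lies inside the interval of 0 to 24.2%, and in 9 of 49 distal regions against 15.2%. AGGGGNC, part of the INSM1 site, occurred in 5 of 12 promoter regions against 35.8% of all, including all 3 of *INSM1*, and in 10 of 49 distal regions against 16.0%. Over whole regions its distal share was 40.8% (28.2% to 54.8%) against 25.5%, outside the interval. The ETS motif GGAAGTG occurred in 7 of 49 distal regions, 14.3% (7.10% to 26.7%), against 6.97% of all, just outside the interval, with 5 of the 7 in *ST18*. In 200 bases the distal share of GGAAGTG was 12.2% (5.73% to 24.2%) against 4.78%, also outside the interval. Over whole regions it was 20.4% (11.5% to 33.6%), an interval that held the share of all distal regions. In whole promoter regions GGAAGTG occurred in 0 of 12 (0 to 24.2%) against 24.6%, just outside the interval. No allowance was made for the number of motifs, classes and windows compared. The distal shares of TAATTA (homeodomain), GTTNCC (part of the RFX site), TGACTCA and CCCGCC, and of TGTTTAC with 2 of 49 regions, had intervals that held the share of all distal regions, which was lost for GTTNCC in 200 bases (10 of 49 against 34.8%) and for TAATTA over whole regions (13 of 49 against 15.8%).

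**Figure D5:**
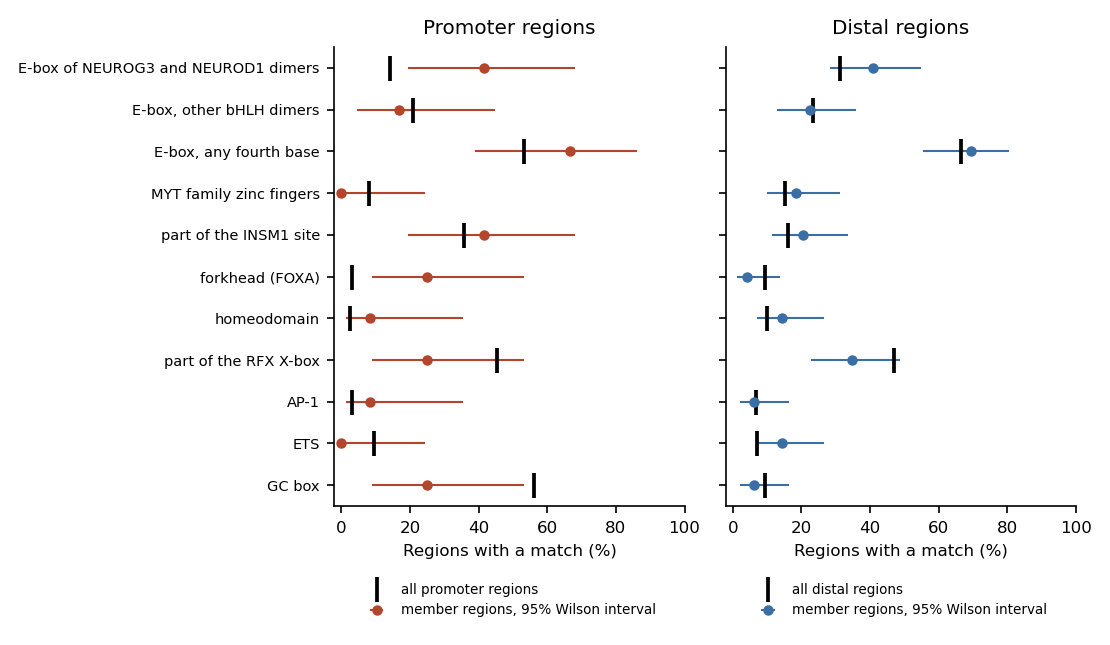
Percent of regions with a match to each of 11 motifs in the 300 bases around the middle, for the 12 promoter regions (left) and 49 distal regions (right) of the 5 genes, as points with 95% Wilson intervals, and for all regions of the class, as black ticks. In the promoter panel the ticks of the E-box of NEUROG3 and NEUROD1 dimers (14.2%), the forkhead motif (3.11%) and the GC box (56.2%) lie outside the intervals, each of them with this window but not with every other window tried.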

How the data were processed

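ATAC-seq had been performed on 3 senescent and 3 non-senescent EndoC-βH3 libraries, grouped by the labels. Per the study's methods, the authors used Trim Galore for trimming and Bowtie2 for alignment to hg38, discarded duplicate and mitochondrial reads, corrected positions for the transposase offset, and counted reads under the union of MACS2 peaks. The union gives every library the same regions. Tool versions are not given in the sources used here. The deposited mean signal is the authors' mean over all 6 libraries of counts divided by DESeq2 size factors. The deposited table also holds the authors' comparison of the groups (fold change, standard error, statistic, p-value and adjusted p-value), which was not used. The planned comparison of groups needs values per library and was not made, and nothing was read from 5 columns.

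Positions were read as 0-based starts, which the file does not state, so edges may be off by 1 base. No region passed a chromosome end of the reference (0 of 108542). Start sites were those of protein-coding transcripts in GENCODE 44. Percentiles are shares of regions of a class, or of genes, with a lower value. Sequences and motifs were read from hg38 with pysam 0.24.0, and intervals are 95% Wilson intervals. Assignment and motif search were tested on simulated data. Members, lists and motifs were chosen with earlier results of these data known. Named were the 5 genes, each one's strongest regions, regions in the top 5% of their class, all paralogs, and the 2 highest and 2 lowest genes of each list, of which some are not reported here though the counts include them. Alternatives varied the promoter window, distal limit, start sites, a filter at a mean signal of 50, scaling by width, chromosomes and motif window.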

Additional observations from a re-analysis of the deposited data

How the results depend on the processing

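The number of promoter regions fell from 12 to 7 with a window of 1 kb and to 5 with 0.5 kb, where *ST18* had 0, since the windows are smaller. The other counts over all 5 genes stayed within 1.5 times: distal regions numbered 36 to 61 over 6 alternatives, and 3 to 4 genes had a strongest promoter region above the class median. Canonical start sites left *ST18* 1 promoter region in place of 3, and start sites of all gene types gave it 6. By gene, canonical start sites gave *NEUROG3* 2, *INSM1* 25 and *ST18* 12 distal regions in place of 1, 16 and 23. Start sites of all gene types gave *INSM1* 10 and *NEUROG3* 0. Which motif shares left their interval changed with the motif window. A minimum mean signal of 50 left *NEUROG3* with 0 regions of either class. Leaving out the *CERKL* start sites beside *NEUROD1*, and using canonical start sites for the distal percentiles, were chosen after seeing the data. The depth and the spread between replicates are unknown from a pooled mean, so small differences in level cannot be judged. No paired analysis was possible because no value per library was at hand in the table used, and for the same reason the other normalization, the count filter and leaving out replicates were not run.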
